A study of Mus musculus with 11 samples.

Results

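Fatty acid oxidation and lipid storage genes were followed in memory and naive CD8 T cells of the mouse. The 34 genes were picked by name from the 52636 genes of the deposited count table, and all 34 were found there. They cover the carnitine shuttle into mitochondria, mitochondrial beta-oxidation, fatty acid and glycerol uptake, acyl-CoA synthesis, triglyceride formation, lipases, a peroxisomal oxidase and the receptor Ppara.

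RNA was sequenced from CD8 T cells of C57BL/6 spleens in 3 groups. CD45RBhi memory cells (4 libraries) and CD45RBlo memory cells (4 libraries) bound a tetramer that the labels name Kb NP396. NP396 is a peptide of the LCMV nucleoprotein, and such a tetramer marks T cells that recognise it. Both memory groups came from mice given 200000 pfu of LCMV Armstrong, an acutely cleared virus, by intraperitoneal injection, with sorting at day 42 to 45. The sample entries of both memory groups also give an infection week of 6. Naive cells (3 libraries) were CD44lo CD8 T cells. The naive labels repeat the infection text and carry an entry of 6 to 8 weeks whose meaning is not stated, so the ages of the naive and memory mice cannot be compared. CD45RB is the form of the surface phosphatase CD45 that includes exon B, and all groups were stated to exceed 99% purity.

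Long-chain fatty acids enter cells through transporters and are joined to coenzyme A by acyl-CoA synthetases. They are then either stored as triglyceride in lipid droplets or carried as acylcarnitines into mitochondria, where each turn of beta-oxidation passes through a dehydrogenase, a hydratase, a second dehydrogenase and a thiolase. Memory CD8 T cells have been described as users of fatty acid oxidation, with glycerol uptake through aquaporin 9 and lysosomal lipolysis among the steps linked to their persistence.

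Total counts ran from 18.02 to 23.2 M per library. A count of 0 therefore allows a level of up to 0.130 to 0.170 CPM (3 counts, as counts scaled to a common total with TMM factors). The summed CD8 T cell markers (Cd3d, Cd3e, Cd3g, Cd8a, Cd8b1 and Trac) ran from 7309 to 8380 CPM in CD45RBhi, 6781 to 8200 CPM in CD45RBlo and 7005 to 7466 CPM in naive libraries. Of 9 erythroid and platelet markers the 8 that could be tested fell in both memory groups against naive. The sum over 9 erythroid and platelet markers was 0.304 to 2.09 CPM in CD45RBhi, 0.242 to 25.2 CPM in CD45RBlo and 241 to 528 CPM in naive libraries. The sum over 10 B cell markers was 217 to 518, 210.2 to 461 and 1192 to 1367 CPM in the same order, mostly from Ighm at 303 ± 132 CPM in CD45RBhi, 261 ± 107 CPM in CD45RBlo and 1159 ± 75.3 CPM in naive libraries. Of 9 tested B cell markers 6 fell in CD45RBhi and 7 in CD45RBlo cells, while Cd22 rose in both, at 7.93 ± 1.97 CPM in CD45RBhi, 13.9 ± 3.996 CPM in CD45RBlo and 1.88 ± 0.925 CPM in naive libraries, and Igkc did not pass. Of 16 macrophage, monocyte and neutrophil markers, 10 could be tested. In both memory groups 8 of these fell and 2 (Cd68 and Itgam) rose against naive, and the sum over the list was 35.3 to 43.1 CPM in CD45RBhi, 31.3 to 49.1 CPM in CD45RBlo and 46.3 to 75.2 CPM in naive libraries. The neutrophil markers S100a8, S100a9 and Csf3r had 0 counts in all CD45RBhi libraries. Ly6g, another neutrophil marker, had 0 to 6 counts in CD45RBhi libraries and 0 in all CD45RBlo and naive libraries. The 6 dendritic cell markers summed to 87.2 to 248 CPM in CD45RBhi, 67.3 to 169 CPM in CD45RBlo and 3.47 to 5.07 CPM in naive libraries, mostly from Itgax. Of these markers 3 could be tested, and 2 (Itgax and Xcr1) rose in both memory groups. Xcr1 was at 7.95 ± 2.06 CPM in CD45RBhi, 9.78 ± 2.14 CPM in CD45RBlo and 1.12 ± 0.108 CPM in naive libraries. Zbtb46 did not pass, at 1.83 ± 0.628, 1.74 ± 0.339 and 1.90 ± 0.228 CPM in the same order. Flt3 had 0 to 2 counts in CD45RBhi, 0 in CD45RBlo and 3 to 14 in naive libraries. Clec9a had at most 3 counts in any library, and Siglech had 0 counts in all memory libraries. The CD4 T cell markers Cd4 and Foxp3 together reached at most 0.149, 0.340 and 1.56 CPM. The part that these other cells play in the results was not tested, and in such bulk samples fewer cells of a type cannot be told apart from less RNA per cell.

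After the filter on low counts 32 members were tested among 13735 genes. The other 2, the monoglyceride lipase Mgll and the fatty acid receptor Ppara, were close to absent. Mgll had 0 counts in CD45RBhi, 0 to 2 in CD45RBlo and 1 to 4 in naive libraries. Ppara had 0 counts in CD45RBhi, 0 to 3 in CD45RBlo and 0 to 2 in naive libraries. Differences were tested two-sided by edgeR's quasi-likelihood method, and p-values were adjusted after Benjamini-Hochberg over all genes tested, with a threshold of 0.05. Levels are means ± SD (n = 4 CD45RBhi, 4 CD45RBlo and 3 naive libraries), and fold changes on the log2 scale carry their SE.

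In CD45RBhi cells 11 of 32 tested members differed from naive, 7 higher and 4 lower. Of all genes 41.5% passed in this comparison, 22.3% higher and 19.1% lower. In CD45RBlo cells 12 of 32 differed from naive, 8 higher and 4 lower, against 42.2% of all genes, with 22.4% higher and 19.8% lower. The members' share was therefore no larger than that of genes at large, and the median log2 fold change of the tested members was 0.02 in both comparisons, against -0.01 over all genes. The 2 comparisons share the naive libraries. Sizes of change are given by place in the pathway, with no test between places. For the 18 mitochondrial members the median absolute log2 fold change was 0.17 in CD45RBhi and 0.16 in CD45RBlo cells. For the 14 tested members of uptake, activation, storage, lipolysis and peroxisomal oxidation it was 0.49 in CD45RBhi and 0.59 in CD45RBlo cells, beside 0.40 and 0.41 for all genes.

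**Figure D1:**
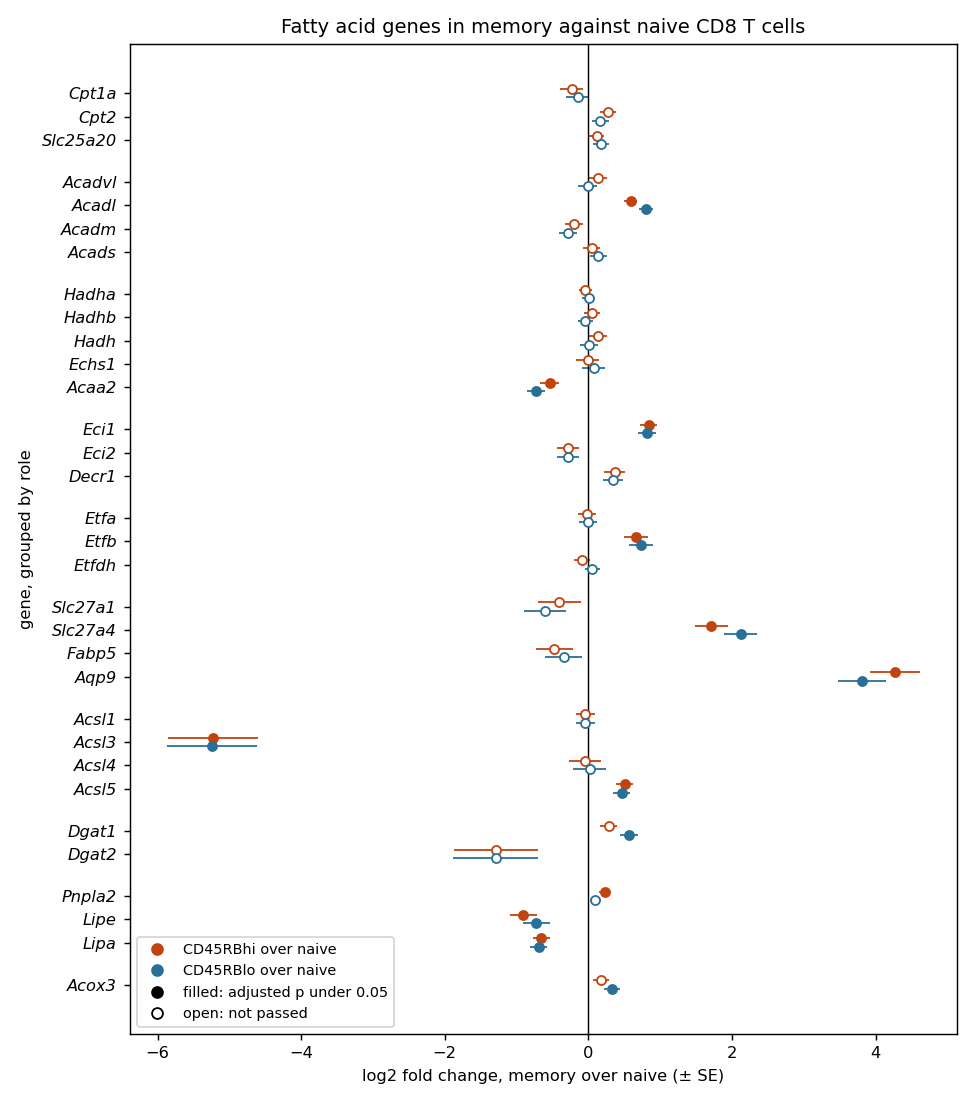
Log2 fold change of the 32 tested members (points, with SE as bars) in CD45RBhi and CD45RBlo memory cells over naive cells, grouped by role from the carnitine shuttle at the top to peroxisomal oxidation at the bottom. Filled points passed the adjusted threshold. Most mitochondrial genes lie close to 0, while Aqp9 and Slc27a4 lie far to the right and Acsl3 lies far to the left in both memory groups.

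The outer ends of the pathway held the members with the largest differences from naive, and the stretches around their transcription starts are shown to place them. Each is a RefSeq window on GRCm38.p6 of 250 bases before to 50 bases after an annotated start, printed 5′ to 3′ on the gene's strand. Capitals mark matches, on either strand, to GGGCGG (or CCGCCC) and to CCAAT (or ATTGG). Aqp9 is on the minus strand (chr9:71163240-71163539, the first of its 2 annotated windows), and Slc27a4 (chr2:29802384-29802683) and Acsl3 (chr1:78657575-78657874) are on the plus strand.
Aqp9: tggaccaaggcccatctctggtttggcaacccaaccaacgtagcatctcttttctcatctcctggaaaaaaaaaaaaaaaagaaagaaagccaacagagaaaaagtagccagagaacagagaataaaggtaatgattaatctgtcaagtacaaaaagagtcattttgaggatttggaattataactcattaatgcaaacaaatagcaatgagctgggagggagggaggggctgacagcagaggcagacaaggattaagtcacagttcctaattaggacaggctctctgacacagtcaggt
Slc27a4: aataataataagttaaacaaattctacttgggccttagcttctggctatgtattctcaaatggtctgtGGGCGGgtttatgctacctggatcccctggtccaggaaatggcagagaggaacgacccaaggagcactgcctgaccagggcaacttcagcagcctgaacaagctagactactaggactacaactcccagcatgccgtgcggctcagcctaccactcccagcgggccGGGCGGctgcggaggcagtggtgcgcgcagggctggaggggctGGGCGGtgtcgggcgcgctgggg
Acsl3: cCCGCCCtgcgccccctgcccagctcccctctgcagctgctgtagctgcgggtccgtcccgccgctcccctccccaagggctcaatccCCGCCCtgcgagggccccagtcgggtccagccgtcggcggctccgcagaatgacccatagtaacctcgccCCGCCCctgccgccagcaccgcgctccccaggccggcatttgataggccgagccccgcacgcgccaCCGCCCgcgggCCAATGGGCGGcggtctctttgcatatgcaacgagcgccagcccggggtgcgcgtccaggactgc
The Slc27a4 window held 3 GGGCGG matches. The Acsl3 window held 5 GGGCGG matches and 1 CCAAT match, which directly adjoins a GGGCGG match. Neither Aqp9 window held a match to any motif searched. Windows were present for 29 of the 34 members (35 windows). GGGCGG, the core of the GC box, was found in 74.3% of the members' windows, 62.0% of windows of genes tested here and 35.7% of all 32851 windows. CCAAT was found in 34.3%, 37.6% and 37.4% in the same order, the E-box CACGTG in 8.57%, 9.89% and 7.15%, and the nuclear receptor element AGGTCA in 11.4%, 12.3% and 16.3%. A pair of direct copies of that element with 1 base between them, the arrangement bound by PPAR receptors, and TCAAGGTCA, the arrangement bound by the receptor Esrra, were found in 0 members' windows. They were found in 0.0396% and 0.423% of all windows. These are matches of letters only and say nothing of binding.

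Among the 4 members for uptake, binding and glycerol entry, Aqp9 and Slc27a4 rose in both memory groups. Values of Slc27a1 and Fabp5 did not pass the test. Aqp3, a further aquaporin gene, was not a member but was listed with the triglyceride synthesis and droplet genes. In the plot of those genes Aqp3 lies farthest to the left, the side of lower levels in memory cells. The rise of Aqp9 is thus not a result for aquaporin genes as a group. Aqp9 encodes aquaporin 9, a channel for glycerol and water. It was at 56.1, 36.7, 28.00 and 38.2 CPM in CD45RBhi libraries, 40.4, 27.8, 17.9 and 29.5 CPM in CD45RBlo libraries and 2.24, 2.54 and 1.38 CPM in naive libraries. Every memory library was above every naive library, with log2 fold changes of 4.27 ± 0.34 in CD45RBhi and 3.81 ± 0.34 in CD45RBlo cells over naive (adjusted p = 6.55e-07 and 1.56e-06). Of the macrophage, monocyte and neutrophil markers above, Itgam rose with Aqp9, at 5.33 ± 2.37 CPM in CD45RBhi, 6.58 ± 3.47 CPM in CD45RBlo and 0.727 ± 0.278 CPM in naive libraries, as did Cd68, while the other 8 tested fell. The part of other cells in the Aqp9 result was not tested. Slc27a4 encodes a fatty acid transport protein with acyl-CoA synthetase activity. It was at 65.8, 55.9, 99.2 and 105 CPM in CD45RBhi libraries, 102, 83.96, 135 and 110.3 CPM in CD45RBlo libraries and 26.9, 23.3 and 24.2 CPM in naive libraries. The memory libraries again lay above all naive ones, with log2 fold changes of 1.71 ± 0.22 in CD45RBhi and 2.12 ± 0.23 in CD45RBlo cells over naive (adjusted p = 5.38e-05 and 8.57e-06). Slc27a1, a second transport protein of this family, was at 8.73, 17.6, 10.9 and 9.63 CPM in CD45RBhi, 5.83, 14.6, 10.9 and 9.44 CPM in CD45RBlo and 14.9, 12.8 and 18.9 CPM in naive libraries, and its groups overlapped. The lipid-binding protein gene Fabp5 was low throughout, at 2.79 ± 0.461 CPM in CD45RBhi, 3.06 ± 0.530 CPM in CD45RBlo and 3.88 ± 1.12 CPM in naive libraries.

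Of the 4 acyl-CoA synthetases, Acsl3 fell and Acsl5 rose in both memory groups. Acsl3, whose product sits on the endoplasmic reticulum and nascent lipid droplets, fell to 0.802, 0, 0.0995 and 0.680 CPM in CD45RBhi libraries and 0.680, 0.291, 0.160 and 0.415 CPM in CD45RBlo libraries, against 12.8, 15.8 and 15.4 CPM in naive libraries. These are 0 to 16 counts in each memory library and 281 to 313 counts in each naive library. The log2 fold changes were -5.23 ± 0.63 in CD45RBhi and -5.24 ± 0.63 in CD45RBlo cells (adjusted p = 2.53e-05 and 2.34e-05). Acsl3 shares 244 exonic bases on the same strand with Utp14b, 5.6% of its exonic length, and the authors' handling of such reads is not given. Utp14b itself had 0 counts in CD45RBhi, 0 to 2 in CD45RBlo and 55 to 76 in naive libraries. Acsl5, a synthetase of mitochondria and endoplasmic reticulum, was at 212, 297, 246 and 269.5 CPM in CD45RBhi libraries, 231, 291, 219 and 255 CPM in CD45RBlo libraries and 191, 168 and 183 CPM in naive libraries. All memory libraries exceeded all naive ones, with log2 fold changes of 0.50 ± 0.12 in CD45RBhi and 0.46 ± 0.12 in CD45RBlo cells over naive (adjusted p = 0.00529 and 0.00858). Zdhhc6 overlaps 8.31% of the Acsl5 exonic bases on the other strand, and without strand information reads of the 2 genes cannot be told apart there. Zdhhc6 was at 89.8 ± 13.4 CPM in CD45RBhi, 85.1 ± 7.35 CPM in CD45RBlo and 70.4 ± 2.92 CPM in naive libraries. It rose in CD45RBhi cells, with a log2 fold change of 0.35 (adjusted p = 0.0296), and did not pass in CD45RBlo cells, at 0.27 (adjusted p = 0.0805).

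Per kilobase of exon, Acsl5 made up most of the expression of these 4 synthetases. Its share of their summed CPM per kilobase was 80.5 ± 5.29% in CD45RBhi, 79.5 ± 4.71% in CD45RBlo and 69.5 ± 3.92% in naive libraries (SD). The share of Acsl3 was 0.144 ± 0.152%, 0.138 ± 0.0829% and 6.31 ± 0.763% in the same order. Acsl4, which prefers arachidonic acid, had 17.03 ± 5.06%, 17.99 ± 4.68% and 21.2 ± 3.00%, and Acsl1 had 2.35 ± 0.128%, 2.38 ± 0.0916% and 2.95 ± 0.420%. In CPM neither Acsl4 nor Acsl1 passed against naive. For Acsl1 the 95% interval of the log2 difference was -0.32 to 0.24 in CD45RBhi and -0.32 to 0.24 in CD45RBlo cells, and for Acsl4 it was -0.54 to 0.44 and -0.47 to 0.51.

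**Figure D2:**
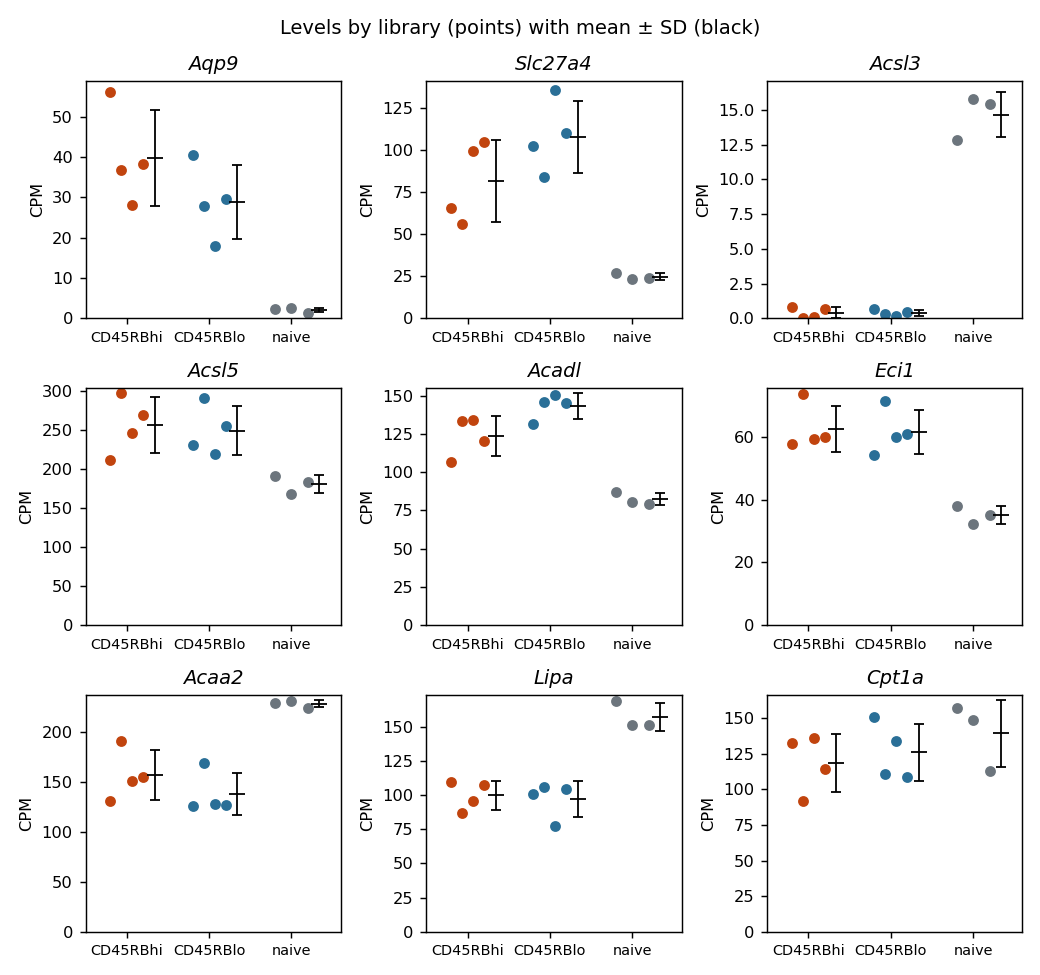
CPM (vertical axis, from 0) of 9 members in each library (points), with mean ± SD in black, for CD45RBhi, CD45RBlo and naive groups from left to right. Aqp9, Slc27a4, Acsl5, Acadl and Eci1 show memory libraries above naive ones, Acsl3, Acaa2 and Lipa show them below, and the 3 groups overlap in Cpt1a.

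None of the 3 carnitine shuttle genes passed against naive. Cpt1a, the outer-membrane enzyme that commits fatty acids to mitochondrial oxidation, was at 133, 92.04, 136 and 114 CPM in CD45RBhi libraries, 151, 111, 134 and 109 CPM in CD45RBlo libraries and 157, 149 and 113 CPM in naive libraries. The 3 groups overlapped. Its log2 fold change was -0.23 ± 0.16 in CD45RBhi cells, with a 95% interval of -0.58 to 0.12, and -0.15 ± 0.16 in CD45RBlo cells, with an interval of -0.50 to 0.20. Cpt2, the inner-membrane partner that restores acyl-CoA, was at 40.1 ± 4.31 CPM in CD45RBhi, 37.3 ± 3.00 CPM in CD45RBlo and 33.2 ± 2.73 CPM in naive libraries, with log2 differences of 0.27 ± 0.11 and 0.17 ± 0.11 (adjusted p = 0.0730 and 0.260). Slc25a20, the carnitine-acylcarnitine carrier, was at 38.5 ± 1.01 CPM in CD45RBhi, 40.1 ± 5.03 CPM in CD45RBlo and 35.5 ± 1.14 CPM in naive libraries. A stretch of 227 bases, 8.25% of its longest transcript, matches Tnfrsf22 at 96.5% identity. Over all libraries Tnfrsf22 had 9332 counts and Slc25a20 had 8513. How reads from such stretches were counted is not given.

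Of the 4 acyl-CoA dehydrogenases, which open each turn of beta-oxidation for chains of different length, only Acadl, the long-chain enzyme, rose. It was at 106, 133, 134 and 120.5 CPM in CD45RBhi libraries, 131, 146, 150.4 and 145 CPM in CD45RBlo libraries and 86.7, 80.6 and 79.3 CPM in naive libraries. No memory library overlapped a naive one, with log2 fold changes of 0.59 ± 0.10 in CD45RBhi and 0.80 ± 0.10 in CD45RBlo cells over naive (adjusted p = 0.000312 and 2.33e-05). The very-long-chain enzyme gene Acadvl was at 95.9 ± 14.3 CPM in CD45RBhi, 87.3 ± 14.03 CPM in CD45RBlo and 87.7 ± 2.93 CPM in naive libraries. On the opposite strand Dvl2 covers 42.9% of the Acadvl exonic bases, and Dvl2 itself fell, with log2 fold changes of -0.31 and -0.38 (adjusted p = 0.0247 and 0.00711), so the value of Acadvl is uncertain without strand information. The medium-chain gene Acadm was at 65.3 ± 11.02 CPM in CD45RBhi, 62.2 ± 6.20 CPM in CD45RBlo and 75.4 ± 2.25 CPM in naive libraries and did not pass (adjusted p = 0.212 and 0.0945). Acads, the short-chain gene, was at 42.2 ± 6.16 CPM in CD45RBhi, 44.9 ± 3.55 CPM in CD45RBlo and 40.8 ± 1.11 CPM in naive libraries.

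Among the later steps only the thiolase gene changed. Acaa2 encodes the mitochondrial thiolase that releases acetyl-CoA, and it was at 131, 191, 151 and 155 CPM in CD45RBhi libraries, 127, 169.5, 129 and 127 CPM in CD45RBlo libraries and 229, 231 and 225 CPM in naive libraries. The naive libraries were nearly equal and above all memory libraries, with log2 fold changes of -0.54 ± 0.13 in CD45RBhi and -0.73 ± 0.13 in CD45RBlo cells over naive (adjusted p = 0.00476 and 0.000572). Acaa2 had the highest level per kilobase of all members in each group, 104 ± 16.4 in CD45RBhi, 90.98 ± 13.9 in CD45RBlo and 151 ± 2.25 in naive libraries (CPM per kilobase, SD). Hadha and Hadhb, the alpha and beta subunits of the trifunctional protein, lie on opposite strands of chromosome 5. They start 273 bases apart by the first RefSeq window of each. GENCODE M21 places the starts closer, at 30155162 for Hadha and 30155248 for Hadhb. Hadha was at 101 ± 5.71 CPM in CD45RBhi, 104 ± 7.54 CPM in CD45RBlo and 104 ± 9.36 CPM in naive libraries, and the 95% intervals of its log2 differences were -0.24 to 0.15 and -0.19 to 0.20. Hadhb was at 199.6 ± 22.6 CPM in CD45RBhi, 187 ± 23.9 CPM in CD45RBlo and 192 ± 4.76 CPM in naive libraries. Hadh, a hydroxyacyl-CoA dehydrogenase, was at 73.2 ± 11.9 CPM in CD45RBhi, 67.2 ± 8.10 CPM in CD45RBlo and 66.5 ± 1.49 CPM in naive libraries. Echs1, the short-chain hydratase, was at 59.7 ± 15.2 CPM in CD45RBhi, 63.3 ± 7.59 CPM in CD45RBlo and 60.2 ± 1.79 CPM in naive libraries. None of these 4 passed the test.

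The accessory enzymes that move or remove double bonds of unsaturated fatty acids were 3, of which Eci1 rose in both memory groups. Eci1, an enoyl-CoA isomerase of the mitochondrial matrix, was at 57.8, 73.6, 59.3 and 59.9 CPM in CD45RBhi libraries, 54.2, 71.4, 59.96 and 60.8 CPM in CD45RBlo libraries and 37.8, 32.2 and 35.1 CPM in naive libraries. The memory and naive libraries did not overlap, with log2 fold changes of 0.84 ± 0.12 in CD45RBhi and 0.81 ± 0.12 in CD45RBlo cells over naive (adjusted p = 0.000127 and 0.000147). Eci2, a related isomerase, was at 26.8 ± 4.36 CPM in CD45RBhi, 26.8 ± 3.86 CPM in CD45RBlo and 32.7 ± 3.71 CPM in naive libraries and did not pass. Decr1, the dienoyl-CoA reductase, was at 16.2 ± 2.03 CPM in CD45RBhi, 16.00 ± 2.06 CPM in CD45RBlo and 12.6 ± 0.868 CPM in naive libraries and lay just short of the threshold, with log2 differences of 0.37 ± 0.14 and 0.35 ± 0.14 (adjusted p = 0.0549 and 0.0672). DESeq2 called Decr1 in CD45RBhi cells.

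Electrons from the dehydrogenases pass to the electron transfer flavoprotein and from there to ubiquinone. Its beta subunit gene Etfb was at 8.22, 10.98, 9.05 and 10.8 CPM in CD45RBhi libraries, 9.29, 12.1, 9.72 and 9.72 CPM in CD45RBlo libraries and 6.76, 5.76 and 5.91 CPM in naive libraries, and all memory libraries lay above all naive ones, with log2 fold changes of 0.67 ± 0.16 in CD45RBhi and 0.73 ± 0.16 in CD45RBlo cells over naive (adjusted p = 0.00563 and 0.00304). The alpha subunit gene Etfa and the gene of the ubiquinone-linked enzyme, Etfdh, did not pass. Etfa was at 101 ± 12.01 CPM in CD45RBhi, 101 ± 16.8 CPM in CD45RBlo and 102 ± 0.621 CPM in naive libraries. Etfdh was at 79.2 ± 10.2 CPM in CD45RBhi, 87.4 ± 7.40 CPM in CD45RBlo and 84.1 ± 5.75 CPM in naive libraries. Per kilobase the 2 subunit genes were far apart. Etfa was at 54.97 ± 6.55 in CD45RBhi, 55.2 ± 9.14 in CD45RBlo and 55.6 ± 0.339 in naive libraries, and Etfb was at 8.38 ± 1.15 in CD45RBhi, 8.77 ± 1.10 in CD45RBlo and 5.28 ± 0.465 in naive libraries (CPM per kilobase, SD). Etfb shares 53.0% of its exonic bases with an overlapping same-strand gene that had 1 count over all libraries, and how shared reads were counted is not given.

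Of the 3 tested lipases, Lipa and Lipe fell in both memory groups and Pnpla2 rose in CD45RBhi cells. Lipa, the lysosomal acid lipase, was at 109, 86.6, 95.4 and 108 CPM in CD45RBhi libraries, 101, 106, 77.4 and 105 CPM in CD45RBlo libraries and 169, 151 and 151 CPM in naive libraries. All memory libraries lay below all naive ones, with log2 fold changes of -0.65 ± 0.12 in CD45RBhi and -0.69 ± 0.12 in CD45RBlo cells over naive (adjusted p = 0.000742 and 0.000461). Lipe, the hormone-sensitive lipase, was at 6.37, 5.68, 8.80 and 6.80 CPM in CD45RBhi libraries, 8.55, 8.82, 6.41 and 7.51 CPM in CD45RBlo libraries and 11.6, 15.6 and 11.6 CPM in naive libraries. It fell in both memory groups, with log2 fold changes of -0.90 ± 0.19 in CD45RBhi and -0.73 ± 0.19 in CD45RBlo cells over naive (adjusted p = 0.00194 and 0.00756). In CD45RBlo cells that call was lost without naive replicate 2 (log2 fold change -0.57, adjusted p = 0.0509). Lyz2, a macrophage and neutrophil marker, was at 0.517 ± 0.471 CPM in CD45RBhi, 1.04 ± 0.751 CPM in CD45RBlo and 17.3 ± 5.95 CPM in naive libraries, and 8 of 10 tested markers of its list fell, as Lipa and Lipe did. The other two rose, with Cd68 at 31.8 ± 4.97 CPM in CD45RBhi, 27.5 ± 3.30 CPM in CD45RBlo and 3.65 ± 0.906 CPM in naive libraries and Itgam as given with Aqp9. The part of these cells in the fall of Lipa and Lipe was not tested. Pnpla2, the adipose triglyceride lipase that opens triglyceride breakdown, was at 174 ± 8.25 CPM in CD45RBhi, 159 ± 9.37 CPM in CD45RBlo and 148 ± 10.1 CPM in naive libraries. It rose in CD45RBhi cells by 0.23 ± 0.08 log2 units (adjusted p = 0.0318). That call was lost when naive replicate 1 or 3, CD45RBhi replicate 2 or 4, or CD45RBlo replicate 4 was left out (adjusted p = 0.0794, 0.138, 0.0626, 0.0641 and 0.0632). Its change in CD45RBlo cells was 0.10 ± 0.08 (adjusted p = 0.349), and the 2 memory groups did not pass against each other.

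Dgat1, which completes triglycerides, was at 32.5, 38.4, 38.5 and 39.4 CPM in CD45RBhi libraries, 37.9, 44.5, 53.6 and 45.1 CPM in CD45RBlo libraries and 29.6, 32.00 and 30.1 CPM in naive libraries. It rose in CD45RBlo cells by 0.57 ± 0.12 log2 units (adjusted p = 0.00227), and its change in CD45RBhi cells was 0.28 ± 0.12 (adjusted p = 0.0788). Dgat2, an unrelated enzyme of the same reaction, had 1 to 11 counts in CD45RBhi, 4 to 8 in CD45RBlo and 10 to 21 in naive libraries, and did not pass. Acox3, a peroxisomal oxidase for branched chains, was at 64.3 ± 9.55 CPM in CD45RBhi, 71.4 ± 1.53 CPM in CD45RBlo and 56.8 ± 3.72 CPM in naive libraries. It rose in CD45RBlo cells by 0.33 ± 0.11 (adjusted p = 0.0281), and its change in CD45RBhi cells was 0.18 ± 0.11 (adjusted p = 0.212). The call in CD45RBlo cells was lost without naive replicate 2 or 3 or without CD45RBlo replicate 4 (adjusted p = 0.0625, 0.114 and 0.0687).

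Further genes of the same pathways were taken from 5 lists. These lists were chosen with earlier results of these data known, so their called shares only describe them. Of 32 listed triglyceride synthesis and droplet genes in the table, 23 could be tested. In CD45RBhi cells 14 rose and 1 fell against naive, which is 65.2% called beside 41.5% of all genes. In CD45RBlo cells 14 rose and 3 fell, which is 73.9% called beside 42.2% of all genes. Of all genes 22.3% in CD45RBhi and 22.4% in CD45RBlo cells were called higher. The list had median log2 fold changes of 0.51 and 0.59, beside -0.01 over all genes. Soat2, which forms cholesterol esters, was at 15.8 ± 3.12 CPM in CD45RBhi, 21.4 ± 3.42 CPM in CD45RBlo and 0.558 ± 0.110 CPM in naive libraries, with log2 fold changes of 4.82 ± 0.25 in CD45RBhi and 5.26 ± 0.25 in CD45RBlo cells over naive (adjusted p = 9.54e-09 and 4.22e-09). Lpin1, a phosphatidate phosphatase, was at 308 ± 57.1 CPM in CD45RBhi, 361 ± 58.3 CPM in CD45RBlo and 84.6 ± 11.5 CPM in naive libraries, with log2 fold changes of 1.87 ± 0.16 in CD45RBhi and 2.10 ± 0.16 in CD45RBlo cells over naive (adjusted p = 1.32e-06 and 4.69e-07). The droplet coat gene Plin2 was at 28.9 ± 5.25 CPM in CD45RBhi, 31.9 ± 5.24 CPM in CD45RBlo and 8.25 ± 0.928 CPM in naive libraries, and Agpat4, an acyltransferase, was at 62.2 ± 3.24 CPM in CD45RBhi, 54.5 ± 2.01 CPM in CD45RBlo and 30.9 ± 2.54 CPM in naive libraries. Both rose in both memory groups, Plin2 by 1.81 ± 0.18 and 1.95 ± 0.18 and Agpat4 by 1.01 ± 0.09 and 0.82 ± 0.09 log2 units. Plin5, a droplet coat gene named here after its values were seen, had 1 to 14 counts in CD45RBhi libraries, 10 to 26 in CD45RBlo libraries and 0 in all naive libraries. Its means were 0.370 CPM in CD45RBhi and 0.968 CPM in CD45RBlo cells. These are 7.59-fold and 19.8-fold of a floor of 3 counts over the whole naive group (0.0488 CPM). The spread between libraries does not enter these ratios.

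**Figure D3:**
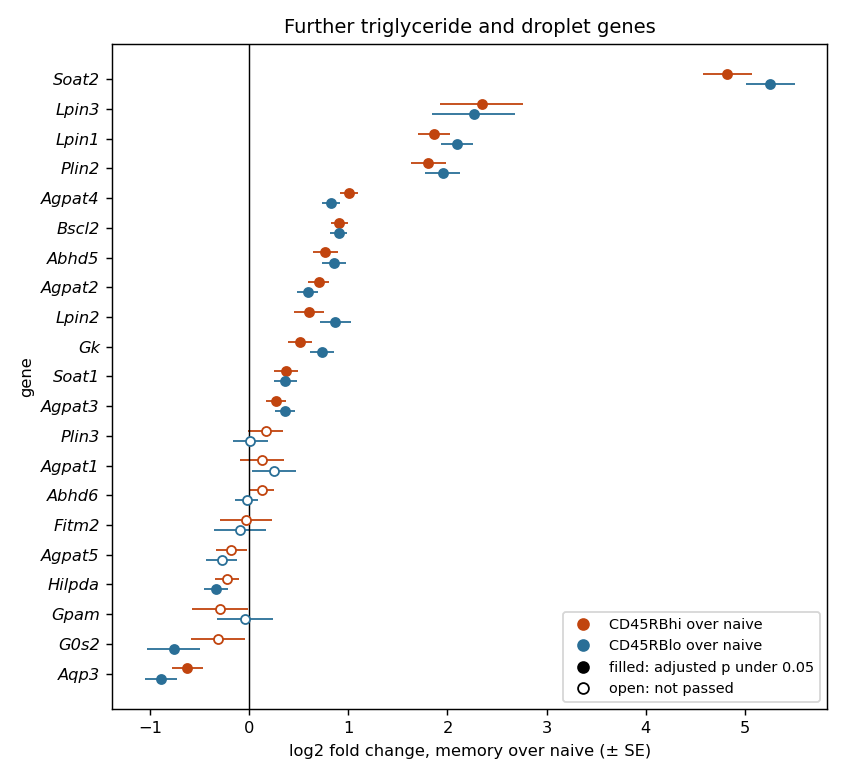
Log2 fold change (points, with SE as bars) of 21 further triglyceride synthesis and droplet genes in CD45RBhi and CD45RBlo memory cells over naive cells, sorted by the value in CD45RBhi cells. Filled points passed the adjusted threshold, and 2 genes with under 3 counts in the naive group (Plin5 and Pnpla3) are not drawn. Soat2, Lpin1 and Plin2 stand to the right, and Aqp3 is the gene farthest to the left.

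Of 18 tested other mitochondrial fatty acid genes 4 rose and 3 fell in CD45RBhi and 4 rose and 4 fell in CD45RBlo cells. These are 38.9% and 44.4% called, near the 41.5% and 42.2% of all genes. Acot7, an acyl-CoA thioesterase, was at 249 ± 31.6 CPM in CD45RBhi, 207 ± 19.03 CPM in CD45RBlo and 13.7 ± 2.79 CPM in naive libraries, with log2 fold changes of 4.18 ± 0.16 in CD45RBhi and 3.92 ± 0.16 in CD45RBlo cells over naive (adjusted p = 8.6e-10 and 1.33e-09). Crat, carnitine acetyltransferase, and Acadsb, a dehydrogenase for short branched chains, rose by 1.28 ± 0.14 and 0.61 ± 0.10 log2 units in CD45RBhi and by 1.48 ± 0.14 and 0.82 ± 0.10 in CD45RBlo cells. Acad10 fell by 0.83 ± 0.18 in CD45RBhi and by 1.22 ± 0.18 in CD45RBlo cells. Of 18 tested peroxisomal genes 3 rose and 4 fell in CD45RBhi and 5 rose and 3 fell in CD45RBlo cells, the same shares as for the mitochondrial list and near those of all genes. Crot, the peroxisomal carnitine octanoyltransferase, was at 283 ± 27.2 CPM in CD45RBhi, 297 ± 24.02 CPM in CD45RBlo and 101 ± 6.21 CPM in naive libraries. It rose by 1.49 ± 0.10 log2 units in CD45RBhi and by 1.56 ± 0.10 in CD45RBlo cells. Pex5, the import receptor of peroxisomes, rose by 0.40 ± 0.09 and 0.56 ± 0.09, and the reductase gene Pecr fell by 1.00 ± 0.22 and 1.22 ± 0.22.

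Of 11 tested further uptake, binding and activation genes 3 rose and 4 fell in each memory group, which is 63.6% called beside 41.5% of all genes in CD45RBhi and 42.2% in CD45RBlo cells. Acsbg1, an acyl-CoA synthetase, was at 113 ± 16.2 CPM in CD45RBhi, 139 ± 17.9 CPM in CD45RBlo and 42.1 ± 1.19 CPM in naive libraries, and the acyl-CoA binding protein gene Dbi was at 49.8 ± 4.08 CPM in CD45RBhi, 46.4 ± 3.44 CPM in CD45RBlo and 26.3 ± 0.233 CPM in naive libraries. Both rose, as did the acetyl-CoA synthetase gene Acss2, by 0.58 ± 0.09 and 0.71 ± 0.09 log2 units. Of 15 tested regulators 2 rose and 2 fell in CD45RBhi, and 4 rose and 2 fell in CD45RBlo cells. These are 26.7% and 40.0% called, below the 41.5% and 42.2% of all genes. Foxo1, a transcription factor of naive and memory cell homeostasis, was at 200.1 ± 10.5 CPM in CD45RBhi, 179.8 ± 10.9 CPM in CD45RBlo and 434 ± 4.86 CPM in naive libraries and fell. Angptl4, a known PPAR target, rose by 1.40 ± 0.23 and 1.23 ± 0.23, and the coactivator gene Ppargc1b fell by 0.58 ± 0.15 and 0.67 ± 0.15. The nuclear receptor gene Esrra rose in CD45RBlo cells by 0.80 ± 0.16 (adjusted p = 0.00143).

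Few members differed between the memory groups. Without regard to replicate number 0 of 32 members differed between CD45RBhi and CD45RBlo cells by edgeR's quasi-likelihood test, where 0.124% of all genes (17) passed. DESeq2 also called 0 members. In the edgeR fit 2 of 32 members (Acadl and Dgat1) had an unadjusted p under 0.05, as did 1236 of all 13735 genes tested. The members' share was thus no larger than that of genes at large. The number of all genes passing ran from 6 to 15 when single libraries were left out. CD45RBhi and CD45RBlo libraries of the same number deviated together from their group means, so the number was also fitted as a block on the 8 memory libraries, where 30 members were tested. In that fit 2 members differed, against 5.59% of all genes. Aqp9 was higher in CD45RBhi cells by 0.47 ± 0.08 log2 units (adjusted p = 0.00860), with the same direction in 4 of 4 pairs. Slc27a4 was lower in CD45RBhi cells, with a log2 difference of -0.43 ± 0.09 (adjusted p = 0.0159), also in 4 of 4 pairs. The levels of both genes overlapped between the groups. Both calls were lost without pair 3 (adjusted p = 0.0687 for Aqp9 and 0.0938 for Slc27a4), and that of Slc27a4 also without pair 1 (adjusted p = 0.0777).

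**Figure D4:**
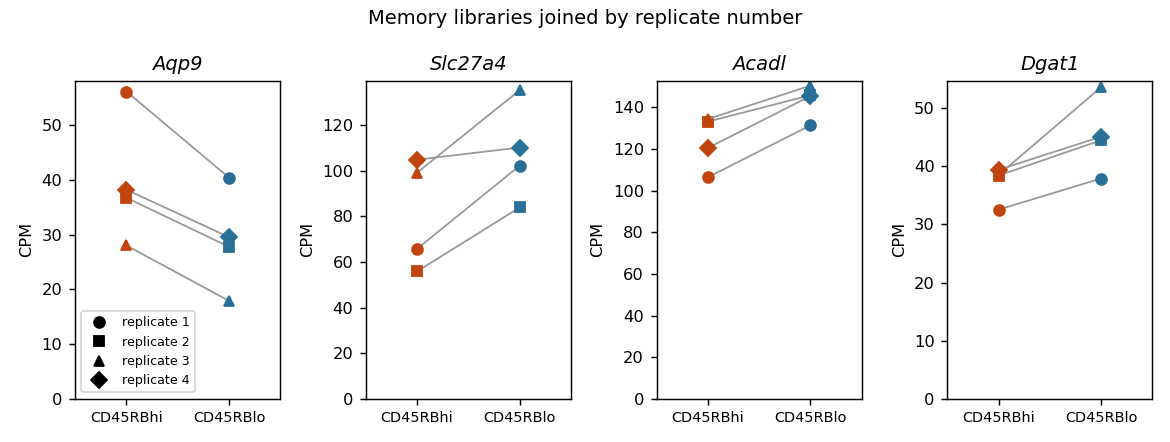
CPM (vertical axis, from 0) of Aqp9, Slc27a4, Acadl and Dgat1 in CD45RBhi (left) and CD45RBlo (right) memory libraries, with lines joining libraries of the same replicate number. Aqp9 is higher in CD45RBhi in each of the 4 pairs, and the other genes are lower in CD45RBhi in each of the 4 pairs.

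Acadl and Dgat1 were lower in CD45RBhi cells in all 4 pairs but did not pass, with log2 differences of -0.21 ± 0.06 and -0.27 ± 0.08 (adjusted p = 0.0559 and 0.0686). Without pair 2 Acadl passed. The fit with the block left Cpt1a at -0.09 ± 0.07, with a 95% interval of -0.24 to 0.06, and Hadha at an interval of -0.19 to 0.10. All 18 mitochondrial members lay between -0.21 and 0.19 log2 units. Of the further pathway genes, Acot7 was higher in CD45RBhi cells by 0.26 ± 0.06. Lower in CD45RBhi cells were Lpin1 (-0.23 ± 0.05), Soat2 (-0.44 ± 0.10), Acsbg1 (-0.29 ± 0.06), Pex11a (-1.60 ± 0.37), Esrra (-0.38 ± 0.09) and Rxra (-0.54 ± 0.14). By list, 1 of 18 tested other mitochondrial, 1 of 17 peroxisomal and 2 of 22 triglyceride and droplet genes passed with the block. So did 1 of 10 uptake, binding and activation genes and 2 of 15 regulators, beside 5.59% of all genes. None of the list genes passed without the block, and leaving out pairs was not checked for them. Pex11a, a peroxisome division gene, had 6 to 46 counts in CD45RBhi and 38 to 68 in CD45RBlo libraries.

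Members also varied among the replicate numbers of the memory libraries. In the same fit the terms for replicate number passed for 16 of 30 members, against 26.5% of all genes. Among mitochondrial members 11 of 18 passed. Of these, 10 (Acadvl, Acadm, Hadhb, Hadh, Echs1, Acaa2, Eci1, Eci2, Etfa and Etfdh) had their highest mean in replicate 2, and Cpt1a had its lowest there. Echs1, for example, was at 45.6, 81.2, 54.02 and 58.02 CPM in CD45RBhi and 57.3, 74.4, 60.7 and 60.9 CPM in CD45RBlo libraries, with replicate 2 highest in both groups. The deviations of replicate 2 from the group means averaged 0.37 log2 units in Echs1, 0.31 in Acaa2 and -0.25 in Cpt1a. Hadhb passed (adjusted p = 0.00897), while its neighbour Hadha did not (adjusted p = 0.565). Of the other members Slc27a1, Slc27a4, Aqp9, Acsl4 and Acsl5 passed. Aqp9 was highest in replicate 1 and lowest in replicate 3 of both groups, with mean deviations of 0.54 and -0.55, and Acsl4 was lowest in replicate 2 of both groups, with -0.58. Across 12618 genes the replicate 2 deviation had a Spearman correlation of -0.262 with exonic length and 0.110 with GC content. Across the 30 members these were -0.257 and 0.086. Genes of a library share its preparation and are not independent, and the part of transcript length in these deviations was not tested. What the replicate numbers stand for is not stated.

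**Figure D5:**
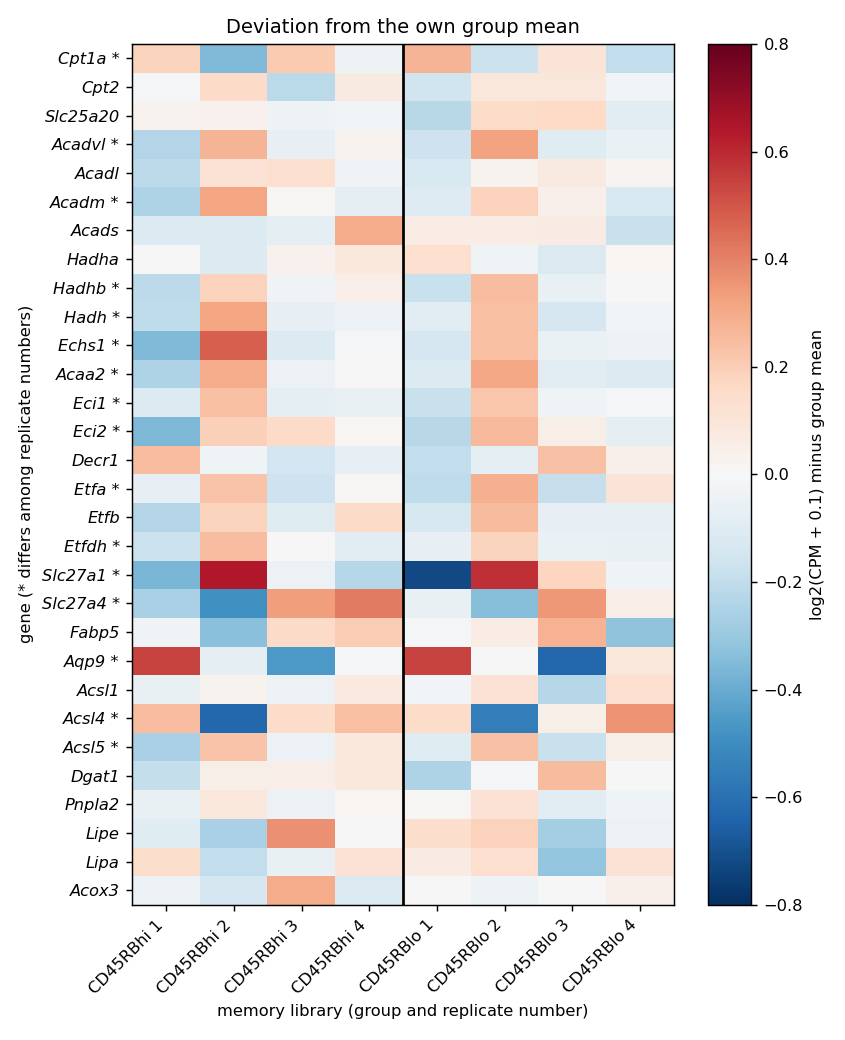
Deviation of each of 30 members (rows) from its own group mean, as log2(CPM + 0.1), in the 8 memory libraries (columns), CD45RBhi at left and CD45RBlo at right. Red is above and blue below the mean, and an asterisk marks the 16 members that passed the test of the replicate number terms. The replicate 2 columns of both groups are red for most mitochondrial genes and blue for Cpt1a, Slc27a4 and Acsl4.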

How the data were processed

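Per the file headers, the table the authors deposited gives unnormalized counts of reads, as whole numbers, for each Ensembl gene and library. The submitters' processing notes name SAMtools, featureCounts, DESeq2, mm10 and GRCm38 without versions. The aligner, the annotation and the use of strand in counting were not given in the sources used here. All 11 libraries were used, and 0 columns of samples were left out. None of 15 pairs of libraries within a group was identical. Chi-square values per degree of freedom ran from 10.2 to 93.3. Limits of 0 counts cover counting error only. The 95% intervals come from the quasi-likelihood fit and include the variation between these libraries.

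Genes were filtered with filterByExpr (minimum count 10) and scaled by TMM, and group means were fitted to all 11 libraries without covariates (R 4.3.3, edgeR 4.0.16, limma 3.58.1). Groups were compared by the quasi-likelihood F test with Benjamini-Hochberg adjustment over 13735 genes. The standard error is the absolute log2 fold change over the square root of F. The biological coefficient of variation was 18.7%. The labels do not say that replicates were separate animals. The p-values thus rest on the variation between these libraries, part of which may be technical.

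Replicate numbers were checked for pairing. Deviations from group means correlated across genes at 0.215 to 0.540 for same-numbered CD45RBhi and CD45RBlo libraries and at -0.405 to 0.0380 for differently numbered ones. The pairing therefore comes from the data. Same-numbered memory and naive libraries reached -0.113 to 0.0560 and were not paired. The fit with the replicate number as a block used the 8 memory libraries and 12637 genes, with a coefficient of variation of 9.88%. The test of the replicate number terms (3 degrees of freedom) was added after seeing the data.

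Positions, exonic lengths and overlaps were taken from GENCODE M21 (GRCm38; 52403 identifiers matched), and promoter windows from RefSeq on GRCm38.p6. Copies of members were searched with blastn 2.17.0 (identity of at least 95% over at least 200 bases). DESeq2 1.42.0, other scalings and filters, a fit of only the groups compared, and leaving out each library or pair were alternatives. Figures were drawn with matplotlib 3.10.9.

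The members, their roles, the further lists and the markers were chosen with earlier results of these data known. All members are named. Of each further list, up to 4 genes by the smallest p against naive are named, plus those that passed between the memory groups. Some genes that this rule names are not reported here. Plin5, Pnpla3, Aqp3, Utp14b, Dvl2 and Zdhhc6 were named after their values were seen or for their overlap with a member.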

Additional observations from a re-analysis of the deposited data

Results flagged for a closer look

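Groups of 4 memory libraries were screened for a single library far from the other 3. Of 64 groups of members' values 8 held one. The cut-off used gives about 1 in 20 for independent, normally distributed values. Genes read in the same libraries are not independent, so that rate cannot be used to judge an excess here. The share over all genes was not computed. Replicate 2 accounted for 5 of the 8. In CD45RBhi cells Eci1 reached 73.6 CPM and Acsl4 was at 37.1 CPM in replicate 2, with the other libraries at 57.8 to 59.9 and 63.6 to 68.2 CPM. In CD45RBlo cells replicate 2 was highest for Acaa2 (169.5 CPM, others 127 to 129), Etfb (12.1 CPM, others 9.29 to 9.72) and Etfdh (98.5 CPM, others 83.5 to 84.0). Acads stood apart in replicate 4 of both groups, in opposite directions, at 51.4 CPM in CD45RBhi (others 38.9 to 39.6) and 39.6 CPM in CD45RBlo (others 46.6 to 46.8). Dgat1 was low in CD45RBhi replicate 1, at 32.5 CPM (others 38.4 to 39.4).

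With replicate numbers paired, 2 of 30 members passed between the memory groups, 6.67% beside 5.59% of all genes, and both calls were lost without pair 3. Slc27a4 had a log2 difference of -0.43 and Aqp9 of 0.47 for CD45RBhi minus CD45RBlo.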

How the results depend on the processing

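Against naive, no called member changed direction under any alternative run. The counts below cover only members called against naive in the main fit, and Aqp9 and Slc27a4 between the memory groups. Each result was set against the fit without the replicate block. Leaving out single libraries or pairs kept 269 results on their side of the threshold, with 9 weaker and 5 stronger. The 5 stronger were block fits between the memory groups. In these Aqp9 (without pair 1, 2 or 4) and Slc27a4 (without pair 2 or 4) still passed. The calls lost without pair 3, and for Slc27a4 without pair 1, thus count among the 269. Members outside these counts also passed against naive in some runs without a single library. These were Dgat1, Acadm, Cpt2 and Decr1 in CD45RBhi cells and Acadm, Decr1 and Slc27a1 in CD45RBlo cells. Other settings kept 143, with 5 weaker and 2 stronger, the latter being Aqp9 and Slc27a4 with the replicate block. Outside these counts, Decr1 passed by DESeq2 and Eci2 with library totals without TMM, both in CD45RBhi cells over naive. In CD45RBlo cells over naive, Acadm passed with library totals without TMM. Acadm and Dgat2 passed there in a fit of only the 2 groups compared. Library totals without TMM moved the median of all genes to -0.16 in CD45RBhi and -0.14 in CD45RBlo cells over naive, and lost Pnpla2 in CD45RBhi (adjusted p = 0.412) and Acsl5 and Acox3 in CD45RBlo cells (adjusted p = 0.0555 and 0.164). Pnpla2 was also lost without a filter on low counts (adjusted p = 0.0743) and in a fit of only the 2 groups compared (adjusted p = 0.0556). The causes were not tested. Members called ranged from 10 to 12 in CD45RBhi and from 10 to 14 in CD45RBlo cells over naive.

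Between the memory groups, genes passing numbered 144 by DESeq2, 4 in a fit of only the 2 groups compared and 707 with the replicate block, against 17. Leaving out single libraries gave 6 to 15, with 9 or fewer without any naive library, CD45RBhi replicate 3 or 4, or CD45RBlo replicate 1, 3 or 4. Leaving out pairs from the replicate block fit gave 167 to 667 (344, 667, 167 and 300 without pairs 1, 2, 3 and 4). Members passing numbered 2 with the replicate block, and 0 to 3 when pairs were left out of it. The replicate block changed no other call of a member, and over naive it gave 11 and 12 members. Depth limits statements on Mgll, Ppara, Dgat2 and Acsl3 in memory cells.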
